A study of Homo sapiens with 4 samples.

Results

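Chemokines are small secreted or membrane-anchored proteins that guide migrating cells, and their names follow the spacing of the first cysteines (CC, CXC, CX3C). The 10 genes described here are 9 chemokine ligands and 1 receptor: CXCL1, CXCL2, CXCL3, CXCL5, CXCL8, CXCL16, CCL2, CCL20, CX3CL1 and ACKR3. They were picked by symbol out of 57820 gene identifiers, and all 10 had a row in every library. All 10 passed the filter on low counts, ACKR3 only through TD and CX3CL1 only through A549. The choice was made with the difference between the compared cells already known. Their changes and calls are therefore given as a description, without a test of the 10 genes as a set. RNA was measured in 2 libraries of parental A549 cells, an established epithelial lung adenocarcinoma line, and in 2 libraries of TD cells. The TD line derives from A549 under standing exposure to TGF-β (transforming growth factor beta), dosed at 2 ng/ml each 3 days, and the labels call its shape mesenchymal-like. Both lines grew in DMEM with 10% serum and gentamycin, so continuous TGF-β is the difference in culture that the labels name. The labels name no clone, passage number or separate culture behind a replicate, so every p-value rests on a spread between libraries that could be purely technical.

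CXCL1, CXCL2, CXCL3, CXCL5 and CXCL8 are CXC ligands that attract neutrophils, mainly through the receptor CXCR2, and their genes lie in 1 cluster on chromosome 4. CCL2 attracts monocytes through CCR2, CCL20 attracts CCR6-bearing lymphocytes and dendritic cells, and CXCL16 and CX3CL1 are made as membrane-anchored forms that are shed by proteases. ACKR3, also called CXCR7, is an atypical receptor that takes up and degrades CXCL12 and CXCL11 and signals through arrestins rather than G proteins. Many of the ligand genes are known targets of NF-kB, a transcription factor family activated by interleukin 1 and tumour necrosis factor.

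The promoters of the clustered CXC genes are shown because these genes share a motif. RefSeq promoter entries (build GRCh38.p14) were matched for 6 of the 10 genes, and the 100 bases before each RefSeq start are printed 5′ to 3′ on the strand of the gene. Capitals mark matches to the NF-kB consensus or to its short form GGAATTTCC. The windows are chr4:73869293-73869392 on the plus strand for CXCL1, chr4:74099196-74099295 on the minus strand for CXCL2 and chr4:74038690-74038789 on the minus strand for CXCL3. For CXCL5 the window is chr4:73998678-73998777 on the minus strand, for CXCL8 chr4:73740469-73740568 on the plus strand, and for CCL20 chr2:227813742-227813841 on the plus strand.
CXCL1: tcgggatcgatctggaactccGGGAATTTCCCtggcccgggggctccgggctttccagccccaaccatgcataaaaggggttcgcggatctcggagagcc
CXCL2: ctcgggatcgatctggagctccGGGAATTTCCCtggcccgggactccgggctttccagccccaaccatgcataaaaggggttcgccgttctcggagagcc
CXCL3: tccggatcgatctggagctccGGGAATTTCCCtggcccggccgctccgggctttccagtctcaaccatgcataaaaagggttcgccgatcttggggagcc
CXCL5: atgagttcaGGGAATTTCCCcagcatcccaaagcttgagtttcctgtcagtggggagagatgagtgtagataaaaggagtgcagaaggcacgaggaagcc
CXCL8: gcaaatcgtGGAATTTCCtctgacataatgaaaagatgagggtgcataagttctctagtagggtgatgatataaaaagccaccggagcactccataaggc
CCL20: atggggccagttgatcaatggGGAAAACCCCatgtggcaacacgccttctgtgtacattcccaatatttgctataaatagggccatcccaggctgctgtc

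The short form GGAATTTCC, searched on both strands of the 300-base promoter entries, was found in 5 of these 6 promoters, namely those of CXCL1, CXCL2, CXCL3, CXCL5 and CXCL8. It was found in 162 of all 35116 promoters of that length (0.461%). Of 26 other chemokine ligands with a promoter entry, 3 held it too, namely CXCL6, CXCL10 and CXCL11. The match began 77 or 78 bases before the start in CXCL1, CXCL2 and CXCL3, and 90 or 91 bases before it in CXCL5 and CXCL8. The longer NF-kB consensus, which can overlap the short form, was found in CXCL1, CXCL2, CXCL3, CXCL5 and CCL20 and in 5.91% of all promoters. The AP-1 motif TGANTCA was found in CXCL8 and in 7.71% of all promoters, and the SMAD motif CAGAC in CXCL2 and CXCL5 and in 45.3%. The interferon-stimulated response element was in 3.57% of all promoters and in no printed gene's entry. Over 300 bases the promoters of CXCL1 and CXCL3 were identical at 82.5% of aligned positions, those of CXCL1 and CXCL2 at 71.9%, and those of CXCL2 and CXCL3 at 73.8%. The 3 most alike promoters belonged to a gene that was higher in TD, CXCL1, a gene that was lower, CXCL2, and CXCL3, whose change was small. Any part of promoter sequence or of these motifs in the changes was not tested.

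Gene counts summed to 26729278 and 29381872 in the A549 libraries and, in the TD libraries, to 28237849 and 44133836. TD replicate 2 was the deepest library but had counts for 27023 genes, against 28309 to 28557 in the others. A limit of 3 counts, which a count of 0 allows, came to 0.068 to 0.112 CPM (counts scaled to the size of the library), and limits and intervals here cover counting error only. Of 17785 genes tested by edgeR's quasi-likelihood test, 43.0% were called at an adjusted p below 0.05, 21.6% higher and 21.4% lower in TD. Among the 10 genes described, 4 were called higher (ACKR3, CCL2, CXCL1, CXCL5), 4 lower (CX3CL1, CCL20, CXCL16, CXCL2), and CXCL3 and CXCL8 were not called. Because the genes were chosen with this contrast known, nothing is read from that count. The levels of the 2 TD libraries lay outside those of the 2 A549 libraries for 9 of the 10 genes, above for 4 and below for 5. Among all tested genes that share was 74.0%, with TD above for 36.5% and below for 37.5%. The median log2 change was -0.062 over the 10 genes and -0.043 over all tested genes, while the median size of the change regardless of sign was 1.13 and 0.50.

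**Figure D1:**
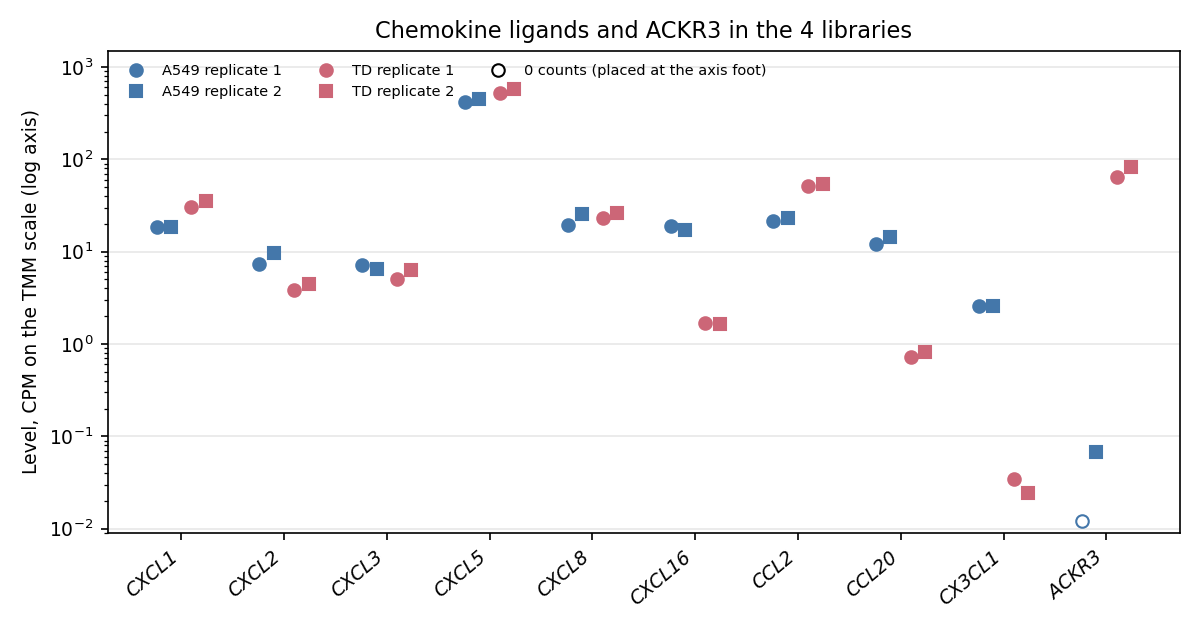
Level of each of the 10 genes in each of the 4 libraries, in CPM on the TMM scale, on a log axis. Blue marks A549, red marks TD, circles are replicate 1, squares are replicate 2, and the open circle is a library with 0 counts. ACKR3 moved from the foot of the axis to 65.2 and 82.8 CPM in TD, CX3CL1, CCL20 and CXCL16 lay far lower in TD, and CXCL8 overlapped between the groups.

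The neutrophil-attracting CXC genes went in different directions, with CXCL1 and CXCL5 higher in TD, CXCL2 lower, and CXCL3 and CXCL8 little different. CXCL5 (ENSG00000163735), known as ENA-78, stood at 417 and 450.2 CPM in A549 and at 525 and 583 CPM in TD, on a scale set by the trimmed mean of M-values (TMM). Both TD libraries were above both A549 libraries, by 1.28-fold in the means, a log2 change of 0.35 (SE 0.10). CXCL5 was no longer called with either A549 library left out, at a log2 change of 0.26 without replicate 1 and 0.38 without replicate 2.

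CXCL1 (ENSG00000163739), also called GRO-alpha, stood at 18.6 and 18.4 CPM in A549 and at 30.5 and 35.3 CPM in TD. The 2 A549 libraries were nearly equal and both TD libraries were higher, by 1.77-fold in the means and 0.83 on the log2 scale (SE 0.10). CXCL2 (ENSG00000081041), its close relative GRO-beta, stood at 7.37 and 9.61 CPM in A549 and at 3.86 and 4.50 CPM in TD. CXCL2 was therefore lower in both TD libraries, 2.03-fold in the means, with a log2 change of -1.02 (SE 0.20). Without A549 replicate 2, the library with the highest CXCL2 level, the change was -0.84 and was not called.

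CXCL3 (ENSG00000163734), or GRO-gamma, stood at 7.11 and 6.51 CPM in A549 and at 5.10 and 6.27 CPM in TD. The TD values lay just under the A549 values, and the log2 change of -0.26 (SE 0.17) was not called. CXCL8 (ENSG00000169429), interleukin 8, stood at 19.6 and 25.3 CPM in A549 and at 23.3 and 26.0 CPM in TD. The groups overlapped for CXCL8, with a log2 change of 0.14 (SE 0.15) that became -0.0795 without A549 replicate 1.

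Ratios of counts within a library do not depend on the scaling between libraries, and they separate CXCL1 from its relatives. CXCL1 had 2.53 and 1.92 times as many counts as CXCL2 in the A549 libraries and 7.91 and 7.84 times as many in the TD libraries. Over CXCL3 the ratio was 2.62 and 2.83 in A549 and 5.99 and 5.62 in TD. Both ratios were higher in each TD library than in each A549 library. The 3 genes are near-identical copies in part of their transcripts: 7.07% of 75-base windows of CXCL2 and 4.57% of those of CXCL3 also occur in another of the 10 genes, against 0.245% for CXCL1. Reads from such windows may be split or dropped by the counting, so the levels of these 3 genes are uncertain to that extent. No 75-base window of the other 7 genes was shared among the 10.

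CCL2 (ENSG00000108691), the monocyte attractant MCP-1, stood at 21.6 and 23.1 CPM in A549 and at 51.9 and 54.0 CPM in TD. Both TD libraries were above both A549 libraries, by far more than the spread within a group, 2.37-fold in the means and 1.24 on the log2 scale (SE 0.08). CCL20 (ENSG00000115009), known as MIP-3-alpha, stood at 12.3 and 14.6 CPM in A549 and at 0.724 and 0.812 CPM in TD. It was 17.5-fold lower in TD in the means, a log2 change of -4.11 (SE 0.18), from 341 and 432 counts to 21 and 33. CCL2 and CCL20, both CC ligands, differed in opposite directions, and the ratio of CCL2 to CCL20 counts was 1.76 and 1.59 in A549 and 71.7 and 66.6 in TD.

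The membrane-anchored ligands were both lower in TD. CXCL16 (ENSG00000161921), which also acts as a scavenger receptor for oxidised lipoprotein, stood at 18.9 and 17.1 CPM in A549 and at 1.69 and 1.65 CPM in TD. The TD libraries were nearly equal, 10.8-fold under A549 in the means, with a log2 change of -3.43 (SE 0.13). CXCL16 overlaps MED11 on the other strand, and since the strand setting of the counting is not given, reads in the overlap cannot be assigned with certainty. CX3CL1 (ENSG00000006210), fractalkine, had 71 and 77 counts in the A549 libraries and 1 count in each TD library. That is 2.55 and 2.60 CPM against 0.0345 and 0.0246 CPM, or 89.7-fold lower by counts with a 95% exact interval of 24.4 to 747.

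ACKR3 (ENSG00000144476) had 0 and 2 counts in the A549 libraries and 1891 and 3365 counts in the TD libraries. These counts are 0 and 0.0674 CPM in A549, at or under the limit of 3 counts, and 65.2 and 82.8 CPM in TD. The ratio of the summed counts was 2169-fold with a 95% exact interval of 600.1 to 17912, an interval set by the 2 counts in A549. The fitted log2 change of 10.90 rests on those counts too, being 9.98 without A549 replicate 1 and 14.23 without A549 replicate 2. In these bulk libraries, more ACKR3 RNA in every TD cell and ACKR3 RNA in more of the cells cannot be told apart, and the same holds for the ligands.

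For ranking, levels of different genes were taken per length, as CPM per kilobase of annotated exon. In A549 the order was CXCL5 at 171, CXCL1 at 14.3, CCL2 at 11.2, CXCL8 at 9.87, CCL20 at 8.41, CXCL16 at 6.45, CXCL2 at 5.66, CXCL3 at 3.07, CX3CL1 at 0.430 and ACKR3 at 0.0149 CPM per kb. The ranges of CCL2 and CXCL8, of CXCL8 and CCL20, and of CXCL16 and CXCL2 overlapped over the 2 libraries. Within each A549 library CCL2 stood above CXCL8, and CXCL8 above CCL20. CXCL16 and CXCL2 changed order between the libraries and are not separated. In TD the order was CXCL5 at 218, ACKR3 at 32.8, CCL2 at 26.7, CXCL1 at 25.4, CXCL8 at 10.8, CXCL2 at 2.79, CXCL3 at 2.56, CXCL16 at 0.597, CCL20 at 0.482 and CX3CL1 at 0.00494 CPM per kb. CCL2 and CXCL1 overlapped there and changed order between the libraries, so they are not separated. The ranges of CXCL2 and CXCL3 overlapped too, but CXCL2 stood above CXCL3 within each TD library. ACKR3 stood last in A549 and next to CXCL5 in TD, and CCL20 stood ahead of CXCL2 and CXCL3 in A549 and behind them in TD.

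**Figure D2:**
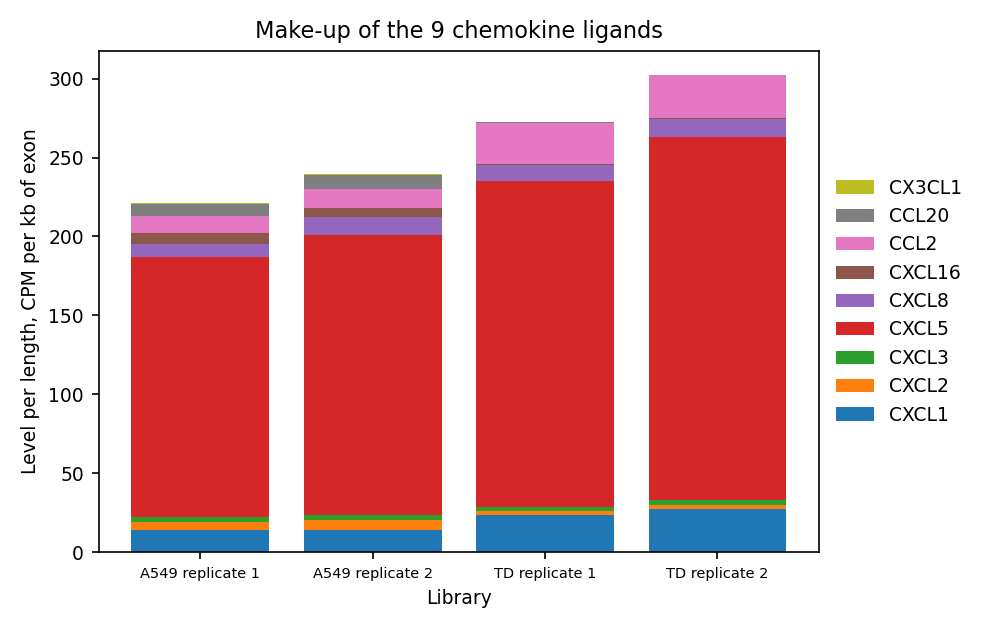
Stacked level per length of the 9 chemokine ligands in each library, in CPM per kb of exon. CXCL5 made up about the same share of each bar, CCL2 and CXCL1 took a larger share in the TD bars, and CCL20 and CXCL16 nearly disappeared there.

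The summed level of the 9 ligands was 221 and 239 CPM per kb in A549 and 273 and 302.5 CPM per kb in TD. CXCL5 alone gave 74.3% and 74.1% of it in A549 and 75.8% and 75.9% in TD. CCL2 went from 4.91% and 4.86% to 9.58% and 8.99%, and CXCL1 from 6.50% and 5.94% to 8.64% and 8.99%. CCL20 went from 3.47% and 3.82% to 0.167% and 0.168%, and CXCL16 from 3.06% and 2.56% to 0.222% and 0.195%. CXCL5 was the bulk of ligand RNA in all 4 libraries, and the order of the minor ligands differed between the lines.

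Most further ligands that could be matched had few or no counts in either line, with at most 8 in any library for the 21 not tested. Of 35 further ligands, 27 were matched to an identifier, 12 of these had 0 counts in every library, and 6 were tested. All 6 were called, 4 lower and 2 higher in TD. Of these, 5 (all but CXCL10) passed the low-count filter only through the group where they were high, so nothing is read from the count or from its distance to the 43.0% called among all tested genes. CXCL10 and CXCL11, interferon-induced ligands of CXCR3, fell from 4.28 and 5.90 CPM to 0.448 and 0.393 CPM (log2 change -3.59, SE 0.28, edgeR adjusted p = 0.000809) and from 2.19 and 2.73 to 0.207 and 0.197 CPM (-3.59, SE 0.32, edgeR adjusted p = 0.00113). The other members called, named after their values were seen, all had under 1 CPM. CCL22 fell from 24 and 22 counts to 0, at least 18.6-fold with 3 counts set for the TD group, and CCL26 fell from 23 and 26 counts to 5 and 12. CCL24 rose from 3 and 1 counts to 16 and 29. CXCL12, the main ligand of ACKR3 and CXCR4, had 0 and 2 counts in A549 and 12 and 19 in TD, 12.8-fold higher by counts with a 95% exact interval of 3.25 to 110.3. CXCL12 was not fitted without TD replicate 2, and its call (edgeR adjusted p = 0.039) was lost without A549 replicate 1 (0.154), without A549 replicate 2 (0.0671) and by DESeq2 (0.0947). CCL22 was not called without A549 replicate 1 (edgeR adjusted p = 0.0979) or replicate 2 (0.0851), and with either of these libraries left out edgeR called 2 further ligands lower and 0 higher, with 1 or 2 higher at an unadjusted p under 0.05. CXCL6, which lies in the same cluster as CXCL8 and CXCL1, had 0 counts in A549 and 1 and 2 counts in TD and was not tested.

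Receptors for these ligands were scarce in both lines. Of 22 chemokine receptors other than ACKR3, 3 had 0 counts in every library, among them CCR2, the receptor of CCL2, and 4 were tested. The other 18 had at most 8 counts in any library. CXCR2, the receptor of the neutrophil-attracting ligands, had 1 count in each A549 library and 0 in each TD library, under the limit of 3 counts. CXCR4, which shares CXCL12 with ACKR3, had 8 and 8 counts in A549 and 2 and 4 in TD and was not tested. Those that fell were CCR1 from 18 and 19 counts to 0 and 3, CCR3 from 12 and 14 counts to 0, and CCR7 from 47 and 47 counts to 25 and 35 (edgeR adjusted p = 0.0249, 0.0132 and 0.0422). CCR1 and CCR3 passed the low-count filter only through A549, so a fall was the direction in which they could be called. CCR1 and CCR7 were not called with either A549 library left out, and CCR3 was not fitted there. CCR7 was also not called by DESeq2 (adjusted p = 0.299) or by edgeR without the low-count filter (adjusted p = 0.0768). CCR10 stood at 22 and 24 counts in A549 and 34 and 35 in TD (log2 change 0.34, SE 0.33, edgeR adjusted p = 0.459).

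**Figure D3:**
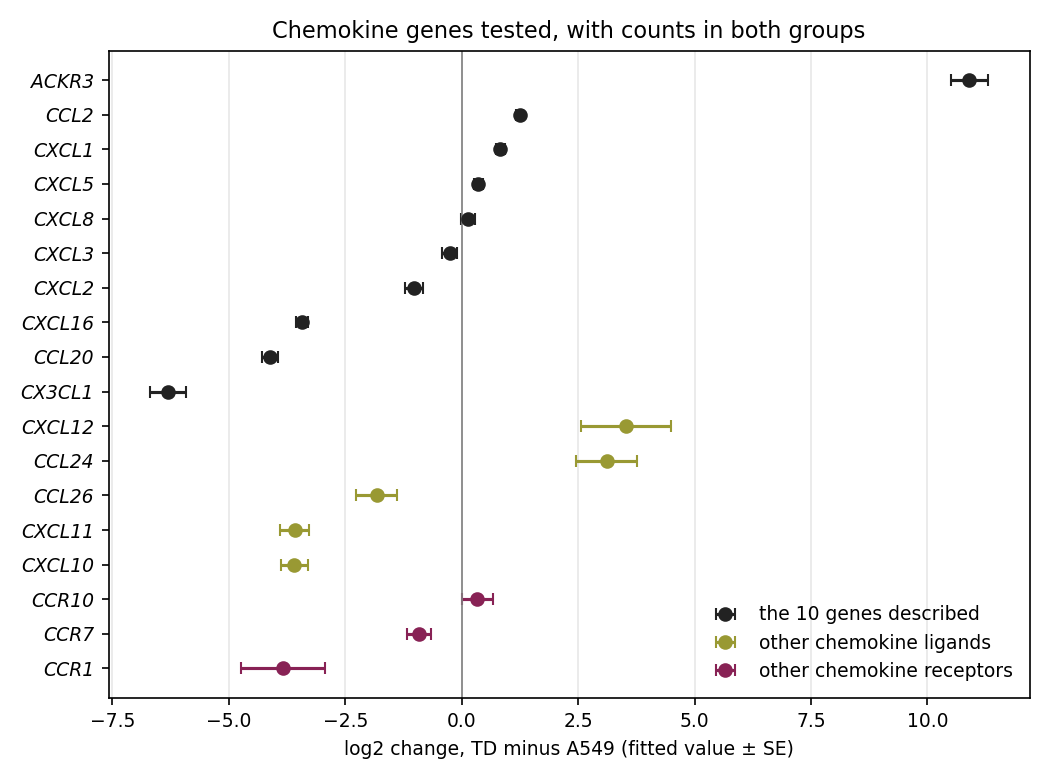
Fitted log2 change of TD over A549 with its SE for the chemokine ligands and receptors that were tested and had counts in both groups. The 10 genes described spread from -6.30 for CX3CL1 to 10.90 for ACKR3, and the other ligands and receptors shown lay between them. CCL22 and CCR3, with fitted changes of -7.68 and -6.86, had 0 counts in TD and are not shown.

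ACKR3 is known to bind CXCL11, CXCL12 and adrenomedullin, and to be phosphorylated by kinases of the GRK family before it recruits arrestins. Of 10 genes of such ligands and partners, 6 fell, 1 rose and 3 were not called, where 21.4% of all tested genes were lower and 21.6% higher. ADM, which encodes adrenomedullin, fell from 56.0 and 54.9 CPM to 1.62 and 2.19 CPM (log2 change -4.85, SE 0.16, edgeR adjusted p = 6.38e-05). ARRB1, which encodes beta-arrestin 1, fell from 58.4 and 62.2 CPM to 3.52 and 4.21 CPM (-3.96, SE 0.12, edgeR adjusted p = 5.75e-05). ARRB2, named after its values were seen, fell less, from 71.1 and 74.1 CPM to 32.9 and 38.3 CPM (-1.02, SE 0.10, edgeR adjusted p = 0.00159). Per length, ARRB2 was the more abundant arrestin RNA in both lines, at 16.6 against 10.3 CPM per kb for ARRB1 in A549 and at 8.15 against 0.662 CPM per kb in TD. CXCL11 and CXCL12 belong to this list too and are given above, CXCL12 being the 1 that rose. CXCL11 passed the low-count filter only through A549 and CXCL12 only through TD. The direction each took was the direction in which it could be called. The kinase genes GRK2 and GRK6 fell as well, while the kinase genes GRK3 and GRK5 and the cytokine gene MIF were not called.

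Genes that act on chemokines after their transcription went both ways, 4 higher and 4 lower of 13, where 21.6% of all tested genes were higher and 21.4% lower. ANPEP, the surface aminopeptidase CD13 that trims chemokines, rose from 3.16 and 2.33 CPM to 138 and 153 CPM (log2 change 5.73, SE 0.17, edgeR adjusted p = 5.41e-05). MME, another of the 4 higher, had 0 counts in A549 and 14 and 29 in TD. It passed the low-count filter only through TD, so a rise was the direction in which it could be called. ADAM10 and ADAM17, the proteases known to shed CX3CL1 and CXCL16, changed in opposite directions. ADAM10 rose from 192 and 199 CPM to 239 and 248 CPM (0.32, SE 0.08, edgeR adjusted p = 0.0252) and ADAM17 fell from 76.9 and 82.0 CPM to 49.5 and 50.2 CPM (-0.67, SE 0.07, edgeR adjusted p = 0.00234). ADAM10 was not called without A549 replicate 1 (edgeR adjusted p = 0.115) or replicate 2 (0.0726), and with either left out 2 genes of the list rose. Among proteins that speed the decay of cytokine RNA, ZFP36L1 rose from 52.2 and 46.9 CPM to 291 and 332 CPM (2.65, SE 0.11, edgeR adjusted p = 0.000118). Its relative ZFP36L2 fell from 72.4 and 70.1 CPM to 15.4 and 20.6 CPM (-1.98, SE 0.15, edgeR adjusted p = 0.000754). ZC3H12A, the ribonuclease Regnase-1, fell from 87.3 ± 10.3 CPM to 29.5 ± 0.731 CPM (SD, n = 2 libraries each; -1.56, SE 0.11, edgeR adjusted p = 0.000517).

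Of 26 tested genes of the NF-kB pathway and its inputs, 12 fell, 5 rose and 9 were not called, where 21.4% of all tested genes were lower and 21.6% higher. NFKBIA, which encodes the inhibitor IkB-alpha and is itself an NF-kB target, fell from 96.3 and 97.4 CPM to 31.4 and 35.0 CPM (log2 change -1.54, SE 0.09, edgeR adjusted p = 0.000273). MYD88, the adaptor of interleukin 1 and Toll-like receptors, fell from 87.1 and 81.0 CPM to 31.7 and 32.7 CPM (-1.38, SE 0.08, edgeR adjusted p = 0.000292). TLR3, a sensor of double-stranded RNA, fell from 8.30 and 9.98 CPM to 0.379 and 0.492 CPM (-4.37, SE 0.24, edgeR adjusted p = 0.000258). In the other direction, IL1A, an interleukin 1 ligand, rose from 0.287 and 0.236 CPM to 9.27 and 9.12 CPM (5.12, SE 0.21, edgeR adjusted p = 0.000111). NFKBIZ, a nuclear co-regulator of NF-kB targets, rose from 9.41 and 8.90 CPM to 26.8 and 24.5 CPM (1.49, SE 0.10, edgeR adjusted p = 0.000439), and IL1RAP, the shared interleukin 1 receptor chain, rose from 8.62 and 8.29 to 16.9 and 17.8 CPM (1.03, SE 0.10, edgeR adjusted p = 0.00136). IL1R1, another interleukin 1 receptor gene of the list, named after its values were seen, was lower in TD. It stood at 60.6 and 64.5 CPM in A549 and at 42.7 and 41.1 CPM in TD (-0.58, SE 0.08, edgeR adjusted p = 0.00412). IL1A passed the low-count filter only through TD, so a rise was the direction in which it could be called. The list's median log2 change was -0.35, against -0.04 over all tested genes. RELA, the main activating subunit, stood at 65.2 and 63.6 CPM in A549 and 64.6 and 73.2 CPM in TD, and TNF had 1 count in each A549 library and 0 in TD. With either A549 library left out, 3 genes of this list rose.

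**Figure D4:**
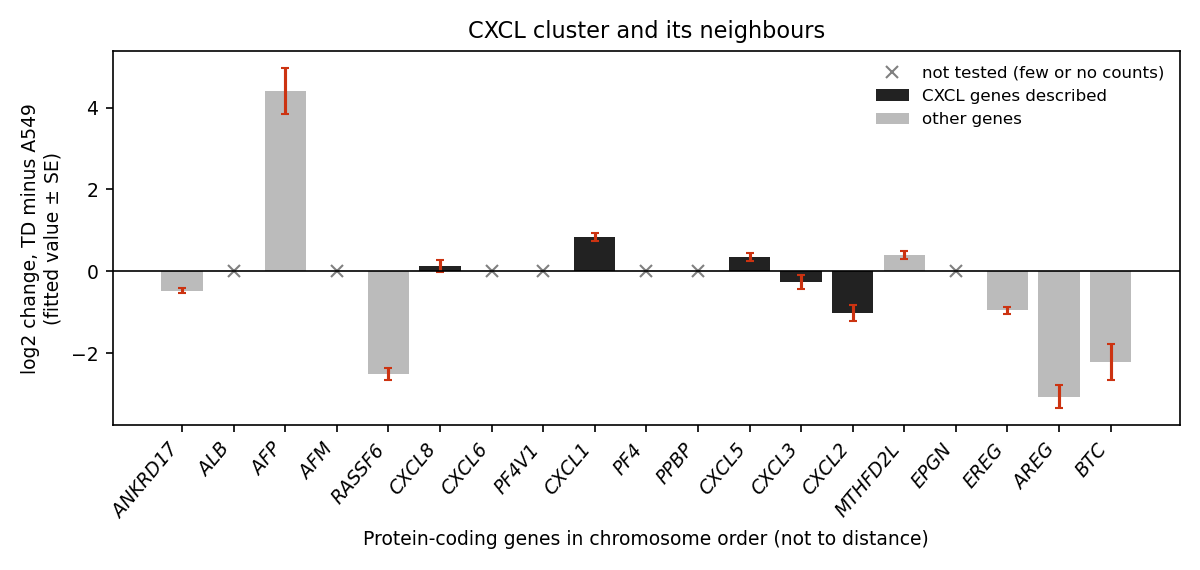
Fitted log2 change of TD over A549 (bars, with SE) for the CXCL cluster on chromosome 4 and the 5 protein-coding genes on each side, in chromosome order. Crosses mark genes that were not tested. The CXCL genes stayed between -1.02 and 0.83, while AFP lay higher and RASSF6, AREG and BTC lay lower.

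Of 10 protein-coding genes flanking the CXCL cluster, 5 on each side, 7 were tested, of which 5 fell and 2 rose, where 43.0% of all tested genes were called. RASSF6, next to CXCL8, fell from 20.9 and 24.8 CPM to 4.41 and 3.64 CPM (log2 change -2.51, SE 0.16, edgeR adjusted p = 0.000379). EREG, AREG and BTC, which encode ligands of the epidermal growth factor receptor and lie beyond CXCL2, fell by 0.96, 3.07 and 2.23 on the log2 scale (edgeR adjusted p = 0.00123, 0.00137 and 0.0145). BTC was not called without A549 replicate 1 (edgeR adjusted p = 0.115) or replicate 2 (0.133), or by DESeq2 (0.0903). ANKRD17 fell by 0.47 on that scale, MTHFD2L and AFP rose by 0.39 and 4.40, and ALB, AFM and EPGN were not tested. AFP passed the low-count filter only through TD and BTC only through A549. The direction each took was the direction in which it could be called. MTHFD2L was not called without A549 replicate 1 (edgeR adjusted p = 0.16) or replicate 2 (0.108) or by DESeq2 (0.138), and AFP was not called without A549 replicate 1 (0.0502) or replicate 2 (0.0504). The ligand genes CCL22, CX3CL1 and CCL17 lie side by side on chromosome 16, a locus looked at after the values were seen, and had 46, 148 and 11 summed counts in A549 and 0, 2 and 0 in TD. The genes on either side of them, which encode no chemokine, fell too, with log2 changes of -2.41 for PLLP and -0.37 for CIAPIN1 (edgeR adjusted p = 0.00129 and 0.0357). CIAPIN1 was not called without A549 replicate 1 (edgeR adjusted p = 0.0611) or replicate 2 (0.0993) or by DESeq2 (0.0504). Of the 4 genes nearest to ACKR3, ASB18 and IQCA1 were not tested. COPS8 rose by 0.42 on the log2 scale (edgeR adjusted p = 0.0328). COL6A3, a collagen VI chain, rose by 3.26 (edgeR adjusted p = 0.0016). COL6A3 passed the low-count filter only through TD, so a rise was the direction in which it could be called. COPS8 was not called without A549 replicate 1 (edgeR adjusted p = 0.146) or replicate 2 (0.0681).

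Genes whose pattern was most like that of ACKR3 were found as the protein-coding genes nearest to it in log2(CPM + 0.5) over the 4 libraries. The nearest was FLRT2, an adhesion protein of axon guidance, at a distance of 0.265, with a mean of 0.0528 ± 0.027 CPM over the A549 libraries and of 73.1 ± 4.34 CPM over the TD libraries (SD, n = 2). CORO2B, SGCD, RASGRF2 and TNFAIP6 followed at distances of 0.989 to 1.34, with TD means of 41.1 to 50.1 CPM and A549 means of at most 0.243 CPM. With 4 libraries in 2 groups, such likeness says little beyond a level near 0 in A549 and a like CPM in TD. The distance took no account of gene length. Per length, FLRT2 stood at 2.09, CORO2B at 12.5, SGCD at 4.26, RASGRF2 at 4.22 and TNFAIP6 at 26.1 CPM per kb in TD. ACKR3 stood there at 32.8 CPM per kb.

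ACKR3 is also known from endothelial and stromal cells, so markers of other cell types were read in the same libraries. Of 8 endothelial markers 7 were matched, and their summed level was 18.5 to 22.4 CPM in A549 and 20.4 to 25.6 CPM in TD, nearly all of it EGFL7. CDH5 and VWF had at most 3 counts in any library, and CLDN5 had 8 and 4 in A549 against 1 and 4 in TD. ERG rose from 2 and 1 counts to 20 and 29 (edgeR adjusted p = 0.00725), and KDR and TEK had 0 counts in A549 and 6 to 16 in TD. The 8 fibroblast markers summed to 1.65 and 1.69 CPM in A549 and 0.758 and 1.13 CPM in TD. LUM made up most of the A549 sum and fell from 38 and 42 counts to 5 and 6 (edgeR adjusted p = 0.00274). FAP had 0 and 1 counts in A549 and 7 and 10 in TD, and COL1A2 0 and 0 against 1 and 10. PDGFRA had 0 and 1 against 4 and 3, THY1 1 and 1 against 1 and 7, and DPT 0 and 0 against 0 and 3. PDGFRB had 6 and 4 against 4 and 7, and DCN at most 1. The fibroblast markers other than LUM were not tested. Of 8 leukocyte markers, CD3E and FCGR3A had 0 counts in every library and PTPRC at most 4. Their summed level was 3.44 to 3.49 CPM in A549 and 6.62 to 7.08 CPM in TD, where CSF1R rose from 9 and 1 counts to 122 and 211 (edgeR adjusted p = 0.00798). CD14 fell from 23 and 23 counts to 10 and 7 (edgeR adjusted p = 0.049), while ITGAM, which was not called, stood at 2.34 and 2.43 CPM in A549 against 1.90 and 1.65 CPM in TD. All 7 tested epithelial markers fell, where 21.4% of all tested genes were lower. The summed level of that list went from 15470 and 16270 CPM to 1729 and 2071 CPM. Among the markers of all these cell types, CSF1R and ERG passed the low-count filter only through TD. CD14, LUM, KRT19, EPCAM and ESRP1 passed it only through A549. The direction each of these took was the direction in which it could be called. These marker levels move with the same contrast, and their part in the chemokine changes was not tested.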

How the data were processed

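Each of the 4 libraries has 1 deposited file of raw, unnormalized counts per Ensembl gene. The authors' steps named are FastQC 0.11.8, STAR 2.7.1a (aligner) and HTSeq 0.11.2 (counting) on GRCh37 (hg19), per the submitters' processing notes. Read filters, strand setting and annotation release were not given in the sources used here. Libraries were strand-specific TruSeq mRNA libraries read from both ends for 75 bases, per the labels' protocols. Rows of reads given to no gene (6.12% to 7.79% outside genes, 2.34% to 2.56% ambiguous and 8.08% to 9.22% with several alignments) were left out.

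Names, gene order and exon lengths came from GENCODE 29 (GRCh38), which matched 52338 of 57820 identifiers. Because that build differs from the files', only the RefSeq promoter coordinates are printed. CCL3, CCL4, CCL5, CCL14, CCL15, CCL16, CCL18, CCL23, IKBKG and PECAM1 were not matched, and their counts are not analysed here. Promoters were matched by symbol, so CCL3, CCL15, CCL18 and CCL23 are among the 26 other ligands with a promoter entry. No protein sequence was used here. No pair of libraries held identical values.

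Counts were fitted with edgeR 4.0.16 (R 4.3.3): TMM scaling, default filter (minimum count 10), quasi-likelihood test, Benjamini-Hochberg adjustment over all tested genes, calls below 0.05. Changes are log2 of TD over A549, and the SE comes from the change and its F statistic. The script was tested on simulated data. Alternatives were DESeq2 1.42.0 (test, size factors), library totals, no filter, a filter of 5 CPM in 2 libraries, no pseudogenes, the replicate number as a block, and each library left out.

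The members and all gene lists were chosen with earlier results of these data known. Named genes were the 10 members and, in each further list, the 3 called genes of at least 1 CPM with the largest change in each direction (all called genes where a list had 5 or fewer). CXCR4, CXCR2, CXCL12, CXCL6, the cluster's and ACKR3's neighbours and the 5 genes nearest to ACKR3 were also named. Others were named after their values were seen.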

Additional observations from a re-analysis of the deposited data

How the results depend on the processing

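The 47 genes with fitted changes gave 502 values under the alternatives. Of these, 463 kept their direction and their side of the threshold, 38 lost their call and 1 changed sign, CXCL8, at -0.0795 without A549 replicate 1 and 0.31 without A549 replicate 2. Pseudogenes left out or DESeq2 size factors changed none of these calls. Over the leave-one-out fits, genes called higher ranged from 2114 (without A549 replicate 1) to 5329 (without TD replicate 1) and lower from 2236 to 6140 (the same libraries). In these fits the further ligands ranged from 0 to 2 higher and from 2 to 4 lower, and receptors from 0 to 3 lower. ACKR3 partners ranged from 0 to 1 higher, processing and decay genes from 2 to 6 higher, and NF-kB genes from 3 to 7 higher. With an A549 library left out the remaining one is assumed to vary like the TD pair, and the coefficient of variation was 34.1% or 34.0%, against 20.1% with all libraries and 7.08% with either TD library left out. With the filter of 5 CPM, 0 further ligands and 0 receptors were fitted, which gives 0 calls in both directions, and 0 ACKR3 partners were higher because CXCL12 was not fitted. By DESeq2, 1 further ligand was higher, and 0 ACKR3 partners were (1 at an unadjusted p under 0.05).

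The replicate numbers are labels that no source ties to a shared culture or day, and the deviations of same-numbered libraries correlated at -0.093 over tested genes. With the replicate block, edgeR called 0 further ligands higher (2 at an unadjusted p under 0.05) and 2 lower. It called 0 receptors lower (2 unadjusted) and 0 ACKR3 partners higher (1 unadjusted), while members called stayed at 4 higher and 4 lower. At these depths, genes with a few counts, such as most receptors, cannot show a difference of moderate size.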
